A study of Homo sapiens with 4 samples.

Results

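The genes that encode the subunits of the oxidative phosphorylation complexes were compared between vincristine-resistant and parental RD cells. Members were chosen by gene symbol: complex I genes (NDUFA, NDUFB, NDUFC, NDUFS and NDUFV with a number, and NDUFAB1), the 4 SDH genes of complex II, the UQCR genes of complex III, COX4 to COX8 of complex IV, the ATP5 genes of complex V and the protein-coding genes of the mitochondrial genome. Of 105 symbols that matched, 4 pseudogenes and 3 noncoding RNAs with antisense symbols were dropped, which left 98 genes of the 18375 in the table. Of these, 13 lie in the mitochondrial genome and 85 in the nucleus. All 98 were measured well enough to be tested.

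RD is a human rhabdomyosarcoma cell line with skeletal muscle features, labelled as negative for the gene fusion of the alveolar type. The resistant group, 2 libraries, was selected with vincristine, a vinca alkaloid that blocks tubulin assembly, from a first dose of 1 to 1.5 nM that killed about 80 to 90% of the cells. Survivors were regrown and the dose was raised in steps of 10 to 20% over 9 to 12 months, until the half-maximal inhibitory concentration had risen at least 100-fold. The parental group, 2 libraries, was untreated, and both groups are labelled as wild type for genotype. The labels do not say whether the replicates came from separate cultures or selections, or whether vincristine was present at harvest, so each p-value rests on the spread among 4 libraries alone, and this may be technical.

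Oxidative phosphorylation passes electrons from NADH and succinate to oxygen and uses the energy to make ATP. Complex I takes electrons from NADH, complex II from succinate, complex III hands them to cytochrome c, complex IV reduces oxygen, and complex V, the ATP synthase, uses the proton gradient that complexes I, III and IV build. Mitochondrial DNA encodes the innermost membrane subunits of complexes I, III, IV and V, while all of complex II and the remaining subunits come from nuclear genes and are imported. The mitochondrial genes are transcribed as long transcripts of both strands that are cut into single RNAs, so their levels depend on transcription, cutting and RNA stability in the organelle.

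The libraries held 58861281 and 67270948 recovered reads in resistant cells and 67690557 and 65818879 in parental cells. Values are counts normalized by the depositors to one size factor per library. Differences are log2 fold changes of resistant over parental cells on the scale of log2(normalized count + 1), with their standard error (SE), and a gene was called at a limma adjusted p below 0.05 over 18330 genes. That rule called 66.9% of all genes, 32.7% as higher and 34.2% as lower. The dispersion that edgeR fitted in common to all genes equals a coefficient of variation between replicates of 2.38% beyond counting noise. Of 4 muscle markers, MYF5 was not among the genes of the table. DES had 49390 and 51167 in resistant cells against 18253 and 18247 in parental cells, MYOG had 7489 and 7459 against 4568 and 4607, and MYOD1 had 15213 and 16685 against 16936 and 16241. The endothelial markers and the blood markers PTPRC and CD3E were also not among them, and CD68 did not exceed 23.2. EPCAM, CDH1 and LUM were at 87.6 or less, whereas KRT18 had 13747 and 14020 in resistant cells against 4446 and 4408 in parental cells, and COL1A1 had 66962 and 68206 against 40787 and 40260. The part of these marker differences in the results below was not tested, and in such bulk libraries fewer cells of a type and less RNA per cell cannot be told apart.

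The mitochondrially encoded genes were mostly higher in resistant cells, and the nuclear genes were split between both directions. Of the 13 mitochondrial genes, 11 were called higher, 1 lower and 1 did not pass, with a median log2 fold change of 0.18. Of the 85 nuclear genes, 31 were called higher, 38 lower and 16 did not pass, against 32.7% of all genes called higher and 34.2% called lower. Their median was -0.03, near the median of 0.004 over all genes, and it turned to 0.01 when libraries were scaled to the same total or to the same total of nuclear genes, where the median over all genes was 0.04 in both cases. Tested against a change of 1.2-fold with limma's treat, which called 18.4% of all genes higher and 18.6% lower, MT-ND1, MT-ND4 and MT-ND4L passed as higher, 7 nuclear genes passed as higher and 11 as lower. With edgeR and an assumed dispersion of 0.01, which called 43.3% of all genes, the same 3 mitochondrial genes passed, with 8 nuclear genes higher and 11 lower. The resistant and parental libraries did not overlap for 13 of the 13 mitochondrial genes and 75 of the 85 nuclear genes, against 82.1% of all genes. The median absolute log2 fold change was 0.23 over the nuclear members and 0.36 over all genes tested.

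**Figure D1:**
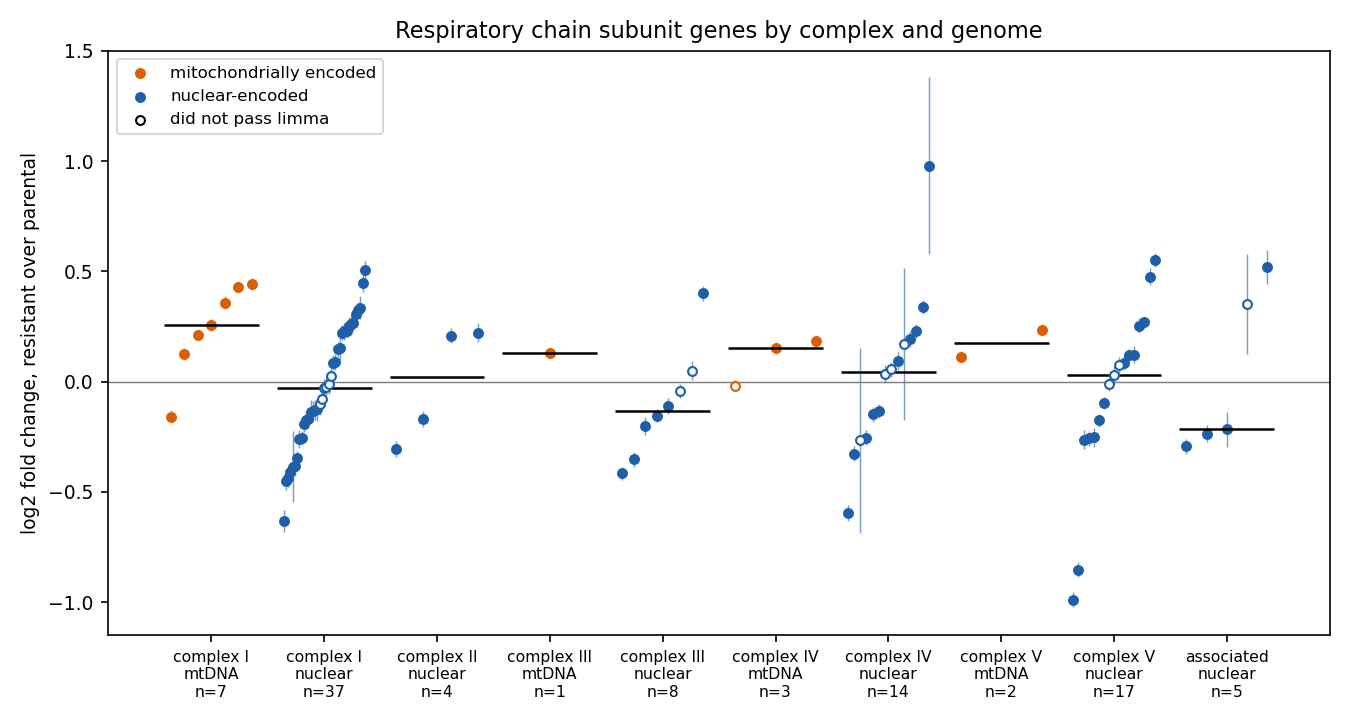
Log2 fold change of resistant over parental cells for each subunit gene, by complex and genome of origin; bars are standard errors, black lines are medians and open circles are genes that did not pass limma. The mitochondrial complex I genes have a median of 0.26 and lie above 0 except for one, while the nuclear genes of each complex lie on both sides of 0.

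Together the 13 mitochondrial genes took 1.94% and 1.90% of the reads in resistant cells, against 1.61% and 1.64% in parental cells, a mean of 1.92 ± 0.03% against 1.62 ± 0.02% (SD, n = 2 each). The 85 nuclear genes took 0.870% and 0.876% in resistant cells and 0.849% and 0.856% in parental cells. There were therefore 2.236 and 2.174 mitochondrial reads per nuclear subunit read in resistant cells and 1.898 and 1.911 in parental cells. The groups did not overlap in any of these shares and ratios. With 2 libraries a group no exact two-sided permutation test can go below p = 0.333, so no p-value is attached. On the scale of normalized counts, the nuclear sums did overlap, with 553951 and 562502 in resistant cells and 555863 and 559919 in parental cells. The mitochondrial sums did not, with 1238753 and 1223073 in resistant cells against 1055137 and 1069968 in parental cells. Relative to parental cells, the mitochondrial complex I genes gained most, and their share of reads was 0.737% and 0.715% in resistant cells against 0.564% and 0.574% in parental cells. Nuclear complex I genes took 0.258% and 0.262% in resistant cells against 0.251% and 0.254% in parental cells. Their normalized sums overlapped, with 164337 and 168221 in resistant cells and 164491 and 166278 in parental cells.

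Among the 7 mitochondrial complex I genes, which encode core subunits of the proton-pumping membrane arm, MT-ND1 and MT-ND4 moved most. MT-ND1, which encodes the subunit next to the quinone site (ENSG00000198888, chrM:3307-4262, GRCh38), had 126825 and 123484 normalized counts in resistant cells against 91548 and 92672 in parental cells. Its log2 fold change was 0.44 (SE 0.03, limma adjusted p = 2.6e-14), and both resistant libraries lay above both parental ones. MT-ND4 (chrM:10760-12137) had 152936 and 149345 in resistant cells against 111228 and 113413 in parental cells, with a log2 fold change of 0.43 (SE 0.03, limma adjusted p = 5.04e-14). MT-ND4L, which lies on the same bicistronic RNA as MT-ND4 and shares 7 bases with it, had 22349 and 21936 in resistant cells against 17528 and 17046 in parental cells, with a log2 fold change of 0.36. MT-ND5 followed at 0.26 with 57388 and 56508 in resistant cells against 46992 and 48230 in parental cells.

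MT-ND6 is the only one of the 13 on the other strand of the genome, and its RNA is known to lack the poly(A) tail that the other mitochondrial messengers carry. It had 24324 and 23753 in resistant cells and 20480 and 21061 in parental cells, with a log2 fold change of 0.21 (SE 0.03, limma adjusted p = 3.42e-07), within the range of the other strand's genes. MT-ND2 had 61828 and 60915 in resistant cells against 55413 and 57118 in parental cells, a smaller rise of 0.13. MT-ND3 (chrM:10059-10404) was the one gene called lower, with 23886 and 22937 in resistant cells against 26131 and 26123 in parental cells, and fell by 0.16 on the log2 scale (SE 0.03, limma adjusted p = 2.35e-05). MT-ND3 lies between MT-CO3 and MT-ND4L, both called higher. The strand setting of the counting is not given in the sources used here, so reads of the opposite mitochondrial strand cannot be told apart from those of each gene.

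The mitochondrial genes of the other complexes had median log2 fold changes of 0.15 for complex IV, 0.17 for complex V and 0.13 for the one gene of complex III, against 0.26 for complex I. MT-CO1, the catalytic subunit of complex IV and the most abundant of the 13 genes (chrM:5904-7445), had 311428 and 309337 in resistant cells against 272160 and 274996 in parental cells, with a log2 fold change of 0.18 (SE 0.03, limma adjusted p = 4.29e-07). MT-CO3 had 142819 and 140436 in resistant cells against 127741 and 126994 in parental cells, with a log2 fold change of 0.15. MT-CO2, which encodes the subunit that receives electrons from cytochrome c, had 93627 and 92987 in resistant cells and 93671 and 95390 in parental cells. Its log2 fold change of -0.02 did not pass (SE 0.03, limma adjusted p = 0.537), although the libraries of the groups did not overlap. The 3 core subunit genes of one enzyme thus had log2 fold changes between -0.02 and 0.18.

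MT-CYB, cytochrome b of complex III, had 66239 and 65257 in resistant cells against 59937 and 60207 in parental cells, with a log2 fold change of 0.13 (SE 0.03, limma adjusted p = 8.23e-05). MT-ATP6, the a subunit of the ATP synthase proton channel, had 126059 and 125908 in resistant cells against 105060 and 109094 in parental cells, with a log2 fold change of 0.23. MT-ATP8, the A6L subunit on the same RNA, had 29044 and 30271 in resistant cells against 27249 and 27624 in parental cells, with a log2 fold change of 0.11. Both genes overlap by 46 bases, which is 22.2% of MT-ATP8 and 6.75% of MT-ATP6, so reads there may be split or dropped. Without parental replicate 1, MT-ATP8 and MT-ND2 lost their calls, which left 9 of the 13 genes called higher.

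Nuclear copies of mitochondrial sequence can take reads of these genes. The table holds 9 such copies, of which 8 were tested, with limma adjusted p between 0.0533 and 0.986. MTATP6P1 was the most abundant, with 5957 and 5889 normalized counts in resistant cells and 5709 and 5517 in parental cells. MTCO1P12 had 864 and 778 in resistant cells and 764 and 779 in parental cells. Both were far below MT-ATP6 and MT-CO1.

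**Figure D2:**
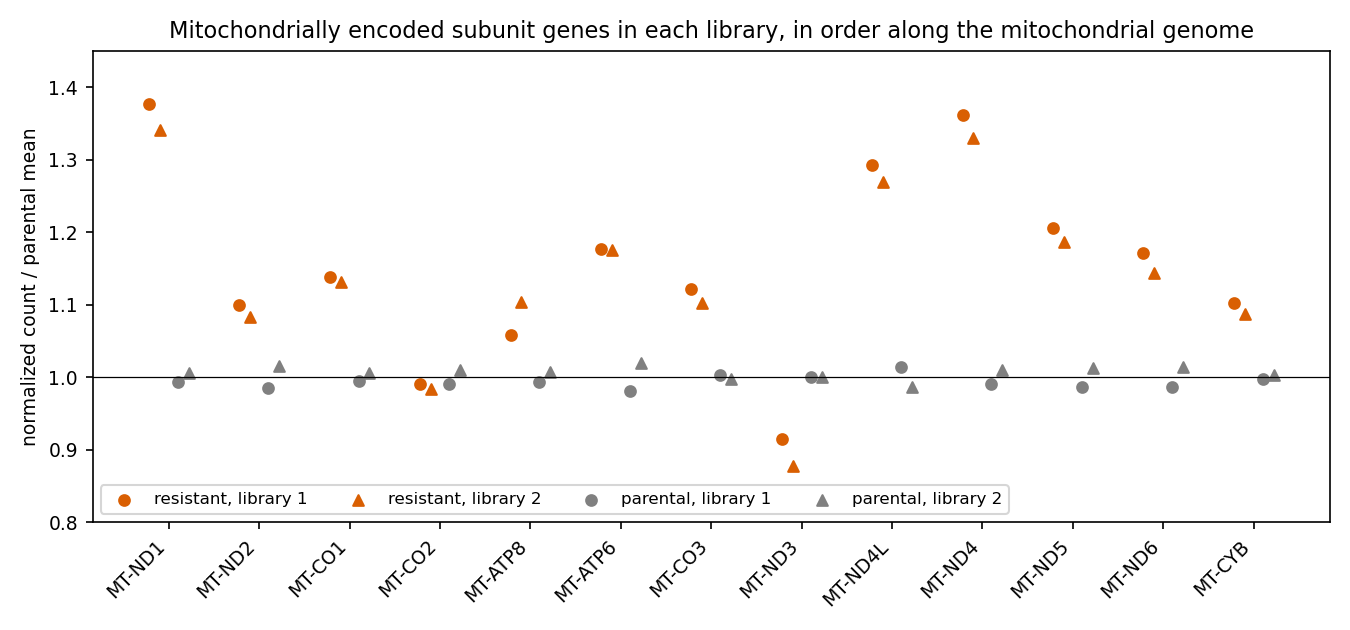
Normalized count of each mitochondrially encoded gene in each library divided by the parental mean, in order along the mitochondrial genome (position not to scale). Resistant libraries lie above the parental ones for 11 of the 13 genes, at MT-CO2 they are close to 1 and at MT-ND3 they are below.

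The 37 nuclear genes of complex I were split, with 15 called higher, 16 lower and 6 not passed and a median of -0.03. The counts for this and the other complexes stand beside 32.7% of all genes called higher and 34.2% called lower. The 9 genes of the electron input arm, where NADH is oxidised, held 4 higher and 4 lower, the 7 of the quinone-binding arm 3 higher and 2 lower, and the 20 of the membrane arm 8 higher and 9 lower. The 7 core subunits, which carry the flavin and the iron-sulfur clusters, had 3 higher and 2 lower, and the 30 accessory subunits 12 higher and 14 lower. All 3 core genes called higher were of the input arm: NDUFS1 had 15479 and 14607 in resistant cells against 12675 and 12978 in parental cells, NDUFV1 7701 and 7569 against 6903 and 6893, and NDUFV2 1230 and 1262 against 1091 and 1150. NDUFS1 and NDUFV1 no longer passed once the median change of nearby genes was subtracted, as described below. NDUFV2 was not called in the authors' deposited table and shares 28.4% of its exonic bases with another gene of its strand. NDUFS7, a core iron-sulfur subunit of the quinone-binding arm, had 3793 and 4182 in resistant cells against 4756 and 4778 in parental cells and was called lower at -0.26. Its count is uncertain, since 35.7% of its exonic bases lie opposite an antisense gene and 13.4% opposite a further antisense gene.

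Among the accessory genes of complex I that were higher, NDUFB8, whose protein is widely used as a marker of assembled complex I, moved most. It had 3561 and 3449 normalized counts in resistant cells against 2455 and 2475 in parental cells, with a log2 fold change of 0.51 (SE 0.04, limma adjusted p = 2.1e-11). NDUFA12 had 4158 and 4407 in resistant cells against 3146 and 3129 in parental cells, with a log2 fold change of 0.45, NDUFB1 had 1568 and 1517 against 1227 and 1219 at 0.33, and NDUFA9, next to the quinone site, had 4953 and 4963 against 3936 and 3989 at 0.32. The rule that named these genes required that the groups not overlap, which held for 82.1% of all genes. NDUFB8 shares 33.8% of its exonic bases with a gene on the same strand and 16.3% with HIF1AN on the opposite one, so its count is uncertain, and NDUFA9 shares 10.6% with a gene on its strand.

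In the other direction, NDUFA3 (ENSG00000170906, chr19:54102728-54109257, GRCh38) had 1289 and 1343 normalized counts in resistant cells against 2024 and 2059 in parental cells, and fell by 0.63 on the log2 scale (SE 0.05, limma adjusted p = 1.07e-11). NDUFA11 had 2988 and 3177 in resistant cells against 4108 and 4310 in parental cells, NDUFB7 had 4034 and 3939 against 5245 and 5345, and NDUFA13, also known as GRIM-19, had 2137 and 2241 against 2842 and 2861. These 4 membrane arm genes all lie on chromosome 19 and had log2 fold changes of -0.63, -0.45, -0.41 and -0.38. NDUFV3, on the flavoprotein side, had 2392 and 2406 in resistant cells against 3278 and 3208 in parental cells, at -0.43. The most abundant nuclear gene of the complex in parental cells, NDUFS5, had 11727 and 12012 in resistant cells against 14974 and 15152 in parental cells and fell by 0.34 on the log2 scale. For NDUFA13, 16.1% of the exonic bases are shared with another gene of the same strand.

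Complex II, the succinate dehydrogenase that also serves the citric acid cycle, has 4 subunit genes and all of them nuclear, and these moved in pairs. SDHA, the flavoprotein, had 5790 and 6210 normalized counts in resistant cells against 6828 and 6663 in parental cells, with a log2 fold change of -0.17 (SE 0.04, limma adjusted p = 0.000222). SDHB, the iron-sulfur subunit, had 4675 and 4503 against 5693 and 5633, at -0.30 (SE 0.04, limma adjusted p = 3.3e-08). The membrane anchors were higher: SDHC had 6883 and 6777 in resistant cells against 5907 and 5923 in parental cells, at 0.21, and SDHD had 5466 and 4939 against 4343 and 4563, at 0.22. The 2 catalytic subunits were thus lower and the 2 anchors higher, and the 4 genes together took 0.0358% and 0.0349% of the reads in resistant cells and 0.0348% and 0.0348% in parental cells.

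SDHA has near-identical pseudogenes that can take its reads. SDHAP3 had 237 and 201 in resistant cells against 97.6 and 90.5 in parental cells and was called higher, while SDHAP1 had 495 and 506 against 599 and 554 and was called lower. The value of SDHA is therefore uncertain by how the counting treated shared reads. All 4 SDH calls ended when tested against a change of 1.2-fold (limma's treat, adjusted p of 0.293 to 1) and with the assumed dispersion of 0.01 (edgeR adjusted p of 0.0819 to 0.372). SDHD shares 11.2% of its exonic bases with another gene of its strand.

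Of the 8 nuclear genes of complex III, 1 was higher, 5 lower and 2 did not pass, with a median of -0.13, and together they took 0.101% and 0.102% of the reads in resistant cells against 0.106% and 0.107% in parental cells. UQCRC2, a core protein, was the gene called higher, with 11779 and 11221 normalized counts in resistant cells against 8794 and 8635 in parental cells, with a log2 fold change of 0.40 (SE 0.03, limma adjusted p = 2.48e-11). Its partner core protein UQCRC1 had 11207 and 11751 in resistant cells and 11769 and 11839 in parental cells and did not pass. The electron-carrying Rieske protein gene UQCRFS1 had 5194 and 5235 in resistant cells against 6567 and 6753 in parental cells, and fell by 0.35 on the log2 scale. UQCRB, a small subunit at the quinone site, had 9186 and 9011 against 12034 and 12248 and fell by 0.42, and UQCRH, the hinge protein and the most abundant of the 8, had 14048 and 14289 against 15884 and 15675 and fell by 0.16. Cytochrome c1, encoded by CYC1 outside the symbol rule, was also lower at -0.13, while CYCS, the cytochrome c that carries electrons onward, was at -0.04 and did not pass.

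The 14 nuclear genes of complex IV, small subunits around the mitochondrially encoded core, divided into 5 higher, 5 lower and 4 not passed. COX6C (ENSG00000164919, chr8:99873200-99894062, GRCh38) moved most among those with many reads, with 3278 and 3260 normalized counts in resistant cells against 4889 and 4994 in parental cells, and fell by 0.60 on the log2 scale (SE 0.04, limma adjusted p = 1.14e-13). COX6B1, which faces the intermembrane space, had 6474 and 6803 in resistant cells against 8345 and 8311 in parental cells, at -0.33, and COX8A had 5753 and 6090 against 7044 and 7069, at -0.25. On the other side, COX7C had 9134 and 9222 in resistant cells against 7290 and 7245 in parental cells, with a log2 fold change of 0.34 (SE 0.03, limma adjusted p = 5.36e-10). NDUFA4, named for complex I but found in complex IV, had 10563 and 10529 against 9013 and 8994, at 0.23. COX4I1, the most abundant nuclear gene of the complex, had 13201 and 14934 in resistant cells and 13086 and 13229 in parental cells. Its log2 fold change was 0.09 (SE 0.04, limma adjusted p = 0.0355) and the groups overlapped. It was 0.005 without resistant replicate 2 and was not called by DESeq2 (adjusted p = 0.366, with 1.09e-13 to 1 over all alternatives). COX8A shares 34.5% of its exonic bases with another gene of its strand.

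Several complex IV subunits have another gene for heart and skeletal muscle or another tissue. In these muscle tumour cells the widely expressed isoform was the dominant one in each pair. COX6A2, the heart and muscle isoform, had 22.7 and 18.1 normalized counts in resistant cells against 9.67 and 9.94 in parental cells, from 21 and 19 reads against 10 and 10. Its log2 fold change was 0.98 (SE 0.40, limma adjusted p = 0.034), but it was not called by DESeq2 (adjusted p = 0.187, with 0.0264 to 0.191 over all alternatives) nor in any fit that left out a library, and 46.0% of its exonic bases lie opposite an antisense gene. It made up 0.273% and 0.206% of the COX6A counts in resistant cells and 0.132% and 0.131% in parental cells, the rest being COX6A1, which had 8308 and 8783 against 7335 and 7606 and was called higher at 0.19. COX6A1 shares 13.0% of its exonic bases with another gene of its strand. The muscle isoform COX7A1 had 19.5 and 23.9 in resistant cells and 17.4 and 20.9 in parental cells, and did not pass, while COX7A2 had 5160 and 5083 against 5649 and 5702, at -0.15. COX6B2, the testis isoform, had 14.1 and 10.5 in resistant cells and 18.4 and 11.9 in parental cells and did not pass. COX7B, whose paralog was not among the genes of the table, had 3728 and 3586 in resistant cells and 3594 and 3542 in parental cells and did not pass.

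Complex V, the ATP synthase, held the genes with the largest differences among the well-measured members. Of its 17 nuclear genes 7 were higher, 7 lower and 3 did not pass. ATP5PD, the d subunit of the peripheral stalk that holds the catalytic head still (ENSG00000167863, chr17:75038863-75046985, minus strand, GRCh38), had 5985 and 6335 normalized counts in resistant cells against 12280 and 12167 in parental cells. It fell by 0.99 on the log2 scale (SE 0.03, limma adjusted p = 1.85e-19). ATP5F1C, the gamma subunit that turns inside the head as the central shaft (ENSG00000165629, chr10:7788129-7807815), had 5070 and 4862 in resistant cells against 8897 and 9028 in parental cells, and fell by 0.85 on the log2 scale (SE 0.03, limma adjusted p = 8e-18). Both were named for large changes among called genes without overlap between groups, so the gap between their groups is part of that choice.

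The partners of these subunits moved in both directions or did not pass. In the F1 head, ATP5F1B, the catalytic beta subunit and the most abundant nuclear gene of all 85, had 66217 and 66035 in resistant cells against 54692 and 55037 in parental cells, with a log2 fold change of 0.27 (SE 0.03, limma adjusted p = 6.12e-10). The alpha subunit gene ATP5F1A had 33787 and 33127 against 30614 and 30942, and the delta subunit gene ATP5F1D 6446 and 7003 against 6175 and 6168, both called higher at 0.12. ATP5F1E, the epsilon subunit, had 9725 and 9699 in resistant cells and 9781 and 9767 in parental cells and did not pass. In the peripheral stalk, ATP5PO, known as OSCP, had 8529 and 8381 in resistant cells against 7132 and 7045 in parental cells, with a log2 fold change of 0.25, ATP5PB was at -0.10 and ATP5PF, at 0.07, did not pass. ATP5PO shares 19.6% of its exonic bases with another gene of its strand.

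The rotating c ring in the membrane is built from one mature protein encoded by 3 genes, and here the balance between them shifted. ATP5MC2 (ENSG00000135390, chr12:53632726-53677408, minus strand) had 10221 and 10270 normalized counts in resistant cells against 6953 and 7025 in parental cells, with a log2 fold change of 0.55 (SE 0.03, limma adjusted p = 1.81e-14). ATP5MC3 had 14280 and 14061 in resistant cells against 15950 and 16059 in parental cells, at -0.18, and ATP5MC1 had 2616 and 2696 against 3108 and 3220, at -0.25. ATP5MC2 thus supplied 37.7% and 38.0% of the c subunit counts in resistant cells against 26.7% and 26.7% in parental cells. ATP5MC3 supplied 52.7% and 52.0% in resistant cells against 61.3% and 61.1% in parental cells, and remained the largest contributor. The summed count of the 3 genes was 27118 and 27027 in resistant cells and 26012 and 26304 in parental cells, a small difference beside the shift between them.

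In the membrane part around the ring, ATP5MD, also called DAPIT and known for a role in pairing of the enzyme, had 6749 and 7370 in resistant cells against 5003 and 5136 in parental cells, with a log2 fold change of 0.48 (SE 0.04, limma adjusted p = 2.35e-11). ATP5ME and ATP5MF, the e and f subunits, were called lower, both at -0.26, and ATP5MG, the g subunit, higher at 0.09. ATP5ME shares 61.6% of its exonic bases with MYL5 on the opposite strand and is therefore uncertain. ATP5MD shares 15.4% with a microRNA gene on its own strand.

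The promoters of the 3 best measured genes with the largest changes, one higher and both strongly lower ones, are given to show the letters from which these messengers start. Each is the RefSeq sequence on GRCh38.p14 from 250 bases before to 50 bases after the gene's start as RefSeq gives it, 5′ to 3′ on the gene's strand. For all 3 genes that start lies inside the gene's span given above. Capitals mark matches to a core of the nuclear respiratory factor 1 motif (GCATGCG) or to an ETS factor motif (CCGGAAG), on either strand. The ATP5MC2 window is chr12:53676034-53676333 on the minus strand, that of ATP5PD chr17:75046920-75047219 on the minus strand, and that of ATP5F1C chr10:7787927-7788226 on the plus strand.
ATP5MC2: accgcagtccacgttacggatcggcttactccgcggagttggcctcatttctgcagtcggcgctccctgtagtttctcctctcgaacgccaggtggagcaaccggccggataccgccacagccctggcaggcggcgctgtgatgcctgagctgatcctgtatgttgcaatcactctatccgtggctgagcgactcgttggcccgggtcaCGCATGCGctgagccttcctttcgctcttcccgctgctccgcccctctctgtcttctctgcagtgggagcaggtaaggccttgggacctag
ATP5PD: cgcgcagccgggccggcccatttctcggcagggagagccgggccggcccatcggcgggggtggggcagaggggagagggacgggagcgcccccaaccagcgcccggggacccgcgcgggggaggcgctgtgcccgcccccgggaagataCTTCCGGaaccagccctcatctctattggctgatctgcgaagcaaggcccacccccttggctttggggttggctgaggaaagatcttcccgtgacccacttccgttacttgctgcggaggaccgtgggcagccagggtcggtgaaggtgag
ATP5F1C: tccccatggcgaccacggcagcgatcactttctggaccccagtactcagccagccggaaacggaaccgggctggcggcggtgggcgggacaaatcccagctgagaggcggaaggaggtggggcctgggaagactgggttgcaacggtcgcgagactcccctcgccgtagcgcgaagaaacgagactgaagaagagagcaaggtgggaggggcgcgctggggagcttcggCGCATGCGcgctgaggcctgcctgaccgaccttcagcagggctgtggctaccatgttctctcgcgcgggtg

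ATP5MC2, called higher, and ATP5F1C, called lower, both hold the same 8 letters, in which the respiratory factor core is read on both strands as 2 overlapping matches. ATP5PD holds 1 ETS match on its minus strand. Of the 85 nuclear members, 69 had a RefSeq promoter of this kind, and 18.8% of these held the respiratory factor core, against 6.31% of the 11956 tested genes with a promoter. The ETS motif was in 28.99% of the members' promoters against 17.8% of all, and part of the YY1 motif (ATGGCGG) in 27.5% against 9.56%. At least 1 of the 3 was in 12 of 24 promoters of members called higher (50.0%), in 18 of 31 of those called lower (58.1%) and in 29.2% of all. Complex III had the respiratory factor core in 0 of 7 promoters, too few to set apart from the 6.31% of all genes. For the ETS motif complex I was below the share of all genes, at 15.6%, and the other complexes were above. For the YY1 part complex IV, at 9.09%, and complex V, at 7.69%, were below, and the other complexes were above. A match describes letters and not a bound factor.

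Of the 85 nuclear members, 5 are associated factors or paralogs and not fixed subunits. ATP5S, known as coupling factor B or DMAC2L, had 659 and 729 normalized counts in resistant cells against 492 and 474 in parental cells, with a log2 fold change of 0.52 (SE 0.08, limma adjusted p = 1.17e-06), and 14.2% of its exonic bases lie opposite CDKL1. COX7A2L, a factor that joins complex III to complex IV in supercomplexes, had 6213 and 6345 in resistant cells against 7623 and 7762 in parental cells, at -0.29. ATP5IF1, the inhibitor that stops the ATP synthase from running backwards, had 5223 and 5764 in resistant cells against 6441 and 6480 in parental cells, at -0.24. UQCRHL, a close paralog of UQCRH that may share its reads, was called lower at -0.22. NDUFA4L2, a hypoxia-inducible relative of NDUFA4, had 53.0 and 64.0 in resistant cells and 48.3 and 42.7 in parental cells and did not pass.

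**Figure D3:**
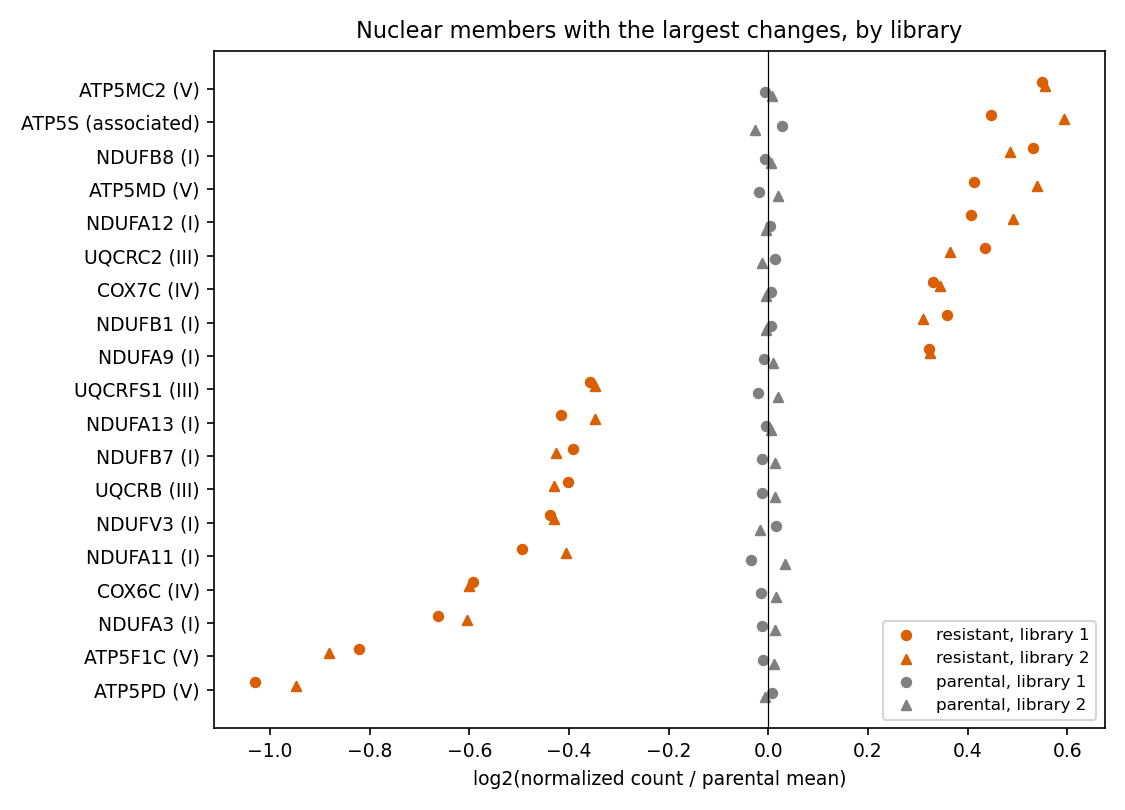
Log2 ratio of each library's normalized count to the parental mean for the nuclear genes with the largest changes in either direction, with the complex in parentheses and COX6A2 left out for its few reads. These genes were chosen as called and without overlap between groups, so the gap between groups follows from the choice. Group differences run from 0.55 for ATP5MC2 to -0.99 for ATP5PD.

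Nuclear members moved in the direction of the genes around them on the chromosome about as often as genes in general did. For each member the median log2 fold change of the 20 nearest tested genes was taken as its neighbour value. Across the 85 members, the member's own change correlated with its neighbour value with a Pearson r of 0.64 and a Spearman rho of 0.61, against 0.32 and 0.38 across 17727 placed genes. These are descriptions over genes, which share the same 4 libraries and, where close, the same neighbours. The coefficients come from unlike sets: changes ran from -0.99 to 0.98 over the members and from -7.15 to 7.75 over all 18330 tested genes. The sign was the same in 57 members (67.1%), against 63.6% of all genes. ATP5PD, at -0.99, lay among neighbours at -1.23, NDUFB8, at 0.51, among neighbours at 0.81, and ATP5MD, at 0.48, among neighbours at 0.85. ATP5F1C fell by more than its neighbours, which were at -0.46, and NDUFA3 at -0.63 had neighbours at -0.10. ATP5MC3 went against its surroundings, at -0.18 among neighbours at 0.74, as did UQCRC2, at 0.40 among neighbours at -0.09, and NDUFA4, at 0.23 among neighbours at -0.28.

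Once the neighbour value was subtracted, 22 members passed as higher and 33 as lower, where 64.9% of all placed genes passed, 31.8% as higher and 33% as lower. Each such p-value, here and below, used the gene's own limma SE and took the neighbour value as fixed. The spread among the neighbours is not part of it, so passing does not show that a gene departs from its surroundings beyond that spread. Of the 69 called nuclear members, 40 kept their sign and passed, 14 kept their sign and did not pass, and 15 changed sign, 9 of them passing in the new direction. ATP5PD turned to 0.24, NDUFB8 to -0.30 and ATP5MD to -0.38, while ATP5F1C remained lower at -0.39, UQCRC2 higher at 0.49 and ATP5MC2 higher at 0.15. SDHB at -0.05, SDHD at 0.05 and NDUFB7 at -0.04 no longer passed. Of the core complex I genes called higher, NDUFS1 at 0.004 (limma adjusted p = 0.930) and NDUFV1 at 0.05 (limma adjusted p = 0.175) did not pass, while NDUFV2 did at 0.28. The part of the neighbours' shared change in each member's own was not tested further.

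**Figure D4:**
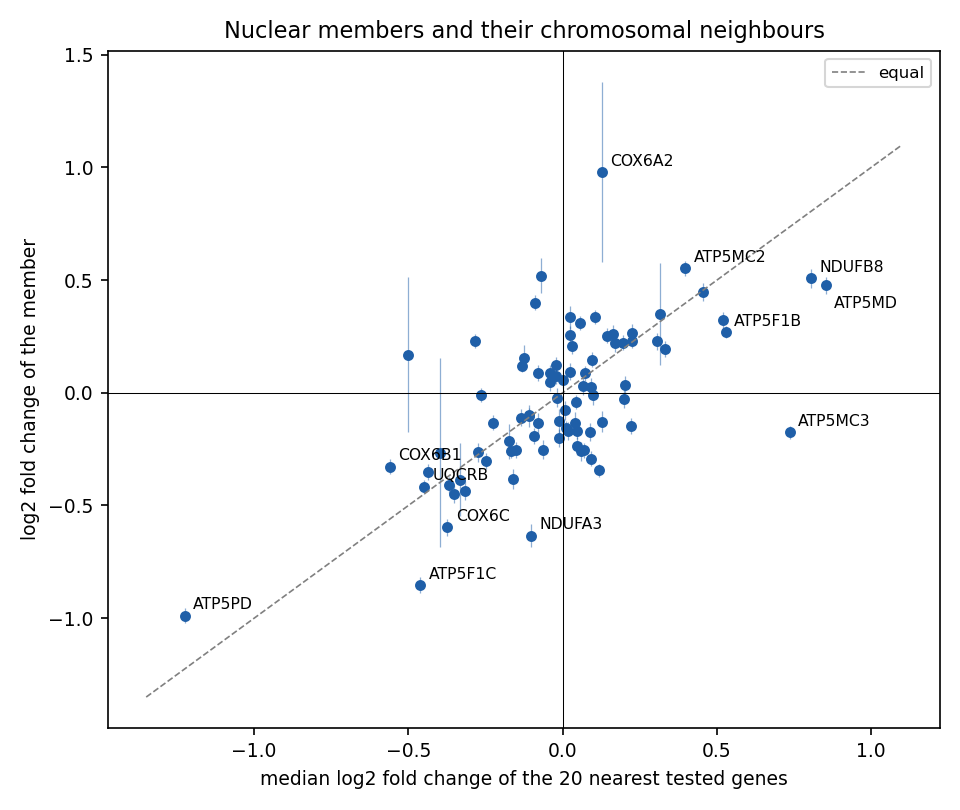
Log2 fold change of each of the 85 nuclear members, with its standard error, against the median log2 fold change of its 20 nearest tested genes; the dashed line marks equality. ATP5PD, NDUFB8 and ATP5MD lie where their neighbours moved more than they did, and ATP5MC3 lies on the other side of 0 from its neighbours.

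Of the 12 members on chromosome 19, 1 was higher, 9 lower and 2 did not pass, where 14.6% of the 1257 tested genes of that chromosome were called higher and 57.1% lower. Of the 6 on chromosome 12, 5 were higher and 1 did not pass, where 64.6% of 960 genes were called higher and 11.6% lower. The 8 members on chromosome 1 held 1 higher and 7 lower, where 30.6% of 1764 genes were called higher and 35.0% lower. On chromosome 8 the 3 members were NDUFB9, called higher at 0.31, and UQCRB and COX6C, both called lower. There, 27.2% of 659 genes were called higher and 42.5% lower.

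The genes that copy and transcribe mitochondrial DNA and process its RNA moved in both directions, with 13 of 25 higher, 7 lower and 5 not passed. Of all genes, 32.7% were called higher and 34.2% lower. TFAM, which packages mitochondrial DNA and starts its transcription, had 8413 and 8173 normalized counts in resistant cells against 5613 and 5651 in parental cells, with a log2 fold change of 0.56 (SE 0.03, limma adjusted p = 4.51e-14). TWNK, the replicative helicase, had 4717 and 4982 in resistant cells against 2888 and 2943 in parental cells, at 0.73. POLG2, the accessory subunit of the mitochondrial DNA polymerase, had 672 and 631 against 1616 and 1448, at -1.23, and MTPAP, the mitochondrial poly(A) polymerase, had 1136 and 1166 against 1986 and 2038, at -0.80. All 4 had a neighbour value of the same sign, 0.45 for TFAM, 0.81 for TWNK, -1.11 for POLG2 and -0.76 for MTPAP. With it subtracted as a fixed value, TFAM still passed (limma adjusted p = 0.00541), and TWNK (0.0862), POLG2 (0.0888) and MTPAP (0.471) did not.

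Among the nuclear regulators of respiratory genes, 6 of the 12 tested were higher, 3 lower and 3 did not pass. This stands beside 32.7% of all genes called higher and 34.2% called lower. PPRC1, a PGC-1 related coactivator, had 11100 and 11518 in resistant cells against 7290 and 7269 in parental cells, with a log2 fold change of 0.64 (SE 0.03, limma adjusted p = 1.18e-15). GABPA, the ETS factor known as NRF2 alpha in this setting, had 4069 and 3895 in resistant cells against 2859 and 3072 in parental cells, at 0.43, and its partner GABPB2 had 506 and 440 against 246 and 265, at 0.88. PPARD was at 0.40, and did not pass with its neighbour value subtracted (limma adjusted p = 0.288). The lower genes, named after their values were seen, were PPARA at -0.46 with 867 and 754 in resistant cells against 1142 and 1086 in parental cells, ESRRA at -0.24 with 2565 and 2661 against 3060 and 3099, and GABPB1, the other partner of GABPA, at -0.13 with 1429 and 1352 against 1542 and 1505. GABPB1 did not pass with its neighbour value subtracted (limma adjusted p = 0.227). NRF1 had 1727 and 2000 in resistant cells and 1839 and 1807 in parental cells, and it did not pass.

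Assembly and regulation genes moved in both directions for each complex, where 32.7% of all genes were called higher and 34.2% lower. For complex I, 4 of 17 were higher and 9 lower, among them NDUFAF5 at -0.72, TMEM70, which also serves the ATP synthase, at -0.69, NDUFAF6 at -0.55 and ECSIT at -0.45. NDUFAF5, among neighbours at -0.69, and ECSIT, among neighbours at -0.41, no longer passed with the neighbour value subtracted (limma adjusted p of 0.683 and 0.472), while TMEM70 and NDUFAF6 did. For complexes II and III together 5 of 10 were higher and 4 lower, with LYRM7 at 0.44, UQCC2 at 0.33, TTC19 at 0.23 and SDHAF1 at -0.39, the last of which turned to 0.10 and did not pass with its neighbour value subtracted (limma adjusted p = 0.144). For complex IV, 5 of 24 were higher, 7 lower and 12 did not pass. TACO1, the activator of MT-CO1 translation, had 1631 and 1641 in resistant cells against 4901 and 4720 in parental cells and fell by 1.56 on the log2 scale (SE 0.04, limma adjusted p = 9.72e-22), among neighbours at -1.10, while the MT-CO1 RNA itself was at 0.18. COX15, which makes heme A, was at 0.74, HIGD1A at 0.33 and PET100 at -0.42, which turned to 0.22 with its neighbour value subtracted. For ATP synthase assembly and regulation, 4 genes were lower, with FMC1 at -0.75, ATPAF2 at -0.36, ATP5IF1 at -0.24 and ATPAF1 at -0.11. Of these, ATPAF1 turned to 0.06 and did not pass with its neighbour value subtracted (limma adjusted p = 0.202). ATP5S, the gene also known as DMAC2L, belongs to the same list and was called higher, as given above.

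Mitochondrial and cytoplasmic ribosomal protein genes give a scale for these counts. Of the 76 mitochondrial ribosomal protein genes, whose products translate the 13 mitochondrial messengers, 19 were higher, 33 lower and 24 did not pass, with a median of -0.07. Of the 81 cytoplasmic ones, 56 were higher, 15 lower and 10 did not pass, with a median of 0.30. Over all genes, 32.7% were called higher and 34.2% lower.

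The authors' deposited table called 56.6% of its genes, 27% as higher and 29.6% as lower. In the authors' deposited table, 11 of the 13 mitochondrial genes were called higher and 1 lower, and all 12 of these were called here with the same sign. The authors' deposited table called 25 of the 85 nuclear genes higher and 33 lower, and all 58 were called here with the same sign. Levels per length, taken as mean normalized counts per kilobase of annotated exons, put MT-CO1 first at 201286 in resistant cells and 177418 in parental cells. MT-ND5 was the lowest of the 13, with 31428 per kilobase in resistant cells and 26275 in parental cells. The highest of the 85 nuclear members was ATP5F1B at 28478 per kilobase in resistant cells and NDUFS5 at 27487 per kilobase in parental cells.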

How the data were processed

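Poly(A)-selected RNA from 2 vincristine-resistant and 2 parental RD libraries was measured, and groups and replicate numbers come from the sample titles. Per the submitters' processing notes, bcl2fastq 2.17, STAR 2.5.2b, featureCounts of Subread 1.5.2 and DESeq2 were used with GRCh38 (annotation and strand setting: not given in the sources used here). Each deposited signal column holds normalized counts, made by the authors from counts and one size factor per library. In each library 100% of the values were whole multiples of a single step (tolerance 0.01), which gave recovered reads and size factors of 0.924 and 1.05 in resistant and 1.03 and 1.01 in parental libraries. The authors' log2 fold changes and their deposited p-values, raw and adjusted, served only to count their calls.

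The filter kept 18330 genes that reached 10 in 2 or more libraries. Values were put on the log2 scale after adding a pseudocount of 1, and limma 3.58.1 fitted them on group alone, with an intensity trend and Benjamini-Hochberg adjustment over all genes at 0.05. The design had been written for either counts or normalized values. Alternatives used edgeR 4.0.16 and DESeq2 1.42.0 on the recovered reads, in R 4.3.3. The fit was tested on simulated data. GENCODE 29 placed 17804 genes (96.9%) and gave exonic overlaps, and promoters come from RefSeq. Members, gene lists and the rule for named genes were chosen with earlier results of these data known. The rule takes every mitochondrial gene, the 10 largest and 10 smallest changes among called nuclear genes without overlap between groups, the most abundant gene of each complex in parental cells, isoform families, the SDH genes and up to 4 genes per list, by adjusted p; subunit genes named beyond it were chosen after their values were seen. The chi-square per gene between replicates was 4.04 in the resistant and 1.61 in the parental pair, above sampling noise.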

Additional observations from a re-analysis of the deposited data

How the results depend on the processing

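Scaling to the same total gave medians of 0.0059 for nuclear and 0.2153 for mitochondrial genes, and scaling to the same total of nuclear genes 0.0104 and 0.2198, with mitochondrial shares on that scale of 1.9633% in resistant and 1.6510% in parental cells. Tested against 1.2-fold with limma's treat, 3380 genes were higher and 3414 lower across the table, among them 7 and 11 nuclear members, and 3 and 0 mitochondrial ones. With edgeR and a fixed dispersion of 0.01, 3880 genes of the table were lower, 8 nuclear members were higher and 11 lower, and 3 mitochondrial ones were higher and 0 lower. For both counts of 0 lower mitochondrial genes the count at an unadjusted p under 0.05 was also 0, while limma, edgeR's quasi-likelihood test and DESeq2 each called 1, MT-ND3. Leaving out each library gave a nuclear median of -0.0708 to -0.0112, 23 to 33 nuclear members higher and 31 to 41 lower, 9 to 11 mitochondrial genes higher and 1 lower, and mitochondrial shares of 1.9048% to 1.9449% in resistant and 1.6123% to 1.6352% in parental cells. With one library in an arm, its spread is assumed to be that of the other group.

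With the neighbour median subtracted, the sign turned for ATP5F1B to -0.26, ATP5MD to -0.38, ATP5PD to 0.24, COX6A1 to -0.14, COX6B1 to 0.23, COX7B to -0.17, NDUFA12 to -0.0081, NDUFA9 to -0.20, NDUFB8 to -0.30, UQCRB to 0.0328 and UQCRFS1 to 0.0839. COX7B had not been called. Of the 36 called named nuclear members, 8 turned sign and passed, 2 turned sign and did not pass (NDUFA12 and UQCRB), and 5 kept their sign and did not pass (COX4I1, COX6A2, NDUFB7, SDHB and SDHD). The neighbour median was taken as fixed, without the spread among the neighbours. The cause was not tested.

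Same-numbered libraries did not deviate together (correlation -0.03), and with the replicate number as a block 29 nuclear members were higher and 37 lower, 11 mitochondrial genes higher and 1 lower, and 5926 and 6218 genes in the table. Of 48 called named members, 2 lost the call under DESeq2, 27 against 1.2-fold, 26 with the fixed dispersion, and none under edgeR's quasi-likelihood test, TMM, the scalings, the pseudocounts of 0.5 and 10, the absence of a filter or the block. Requiring a mean of at least 100 removed genes with few reads, such as COX6A2. Depth limits the isoform genes COX6A2, COX6B2, COX7A1 and NDUFA4L2, which had 67 reads or fewer in each library.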

Other observations

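The table also holds 19 transfer RNA genes of the mitochondrial genome, which lie between the messenger genes and are cut from the same transcripts. In poly(A)-selected libraries of fragmented RNA, such values need not stand for mature transfer RNA. Of the 19, 12 were called higher by limma, 1 lower and 6 did not pass, where limma called 32.7% of all genes higher and 34.2% lower. The authors' deposited table called 8 of them higher and 1 lower. The 4 called only here, MT-TW, MT-TA, MT-TD and MT-TH, had between 6 and 75 reads in a library. MT-TL1, which follows the large ribosomal RNA and precedes MT-ND1, had 5225 and 5203 normalized counts in resistant cells against 2986 and 3066 in parental cells, with a log2 fold change of 0.79 (SE 0.04, limma adjusted p = 3.56e-16). MT-TY, on the other strand beside MT-CO1, had 2650 and 2610 in resistant cells against 1722 and 1559 in parental cells, at 0.68. MT-TC, its neighbour on the same strand, had 2285 and 2209 in resistant cells against 2672 and 2489 in parental cells, at -0.20. MT-TN, next in line, had 5984 and 7598 in resistant cells and 7090 and 7485 in parental cells and did not pass. These genes were chosen after their values were seen.

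The 3 RNAs with antisense symbols, dropped because they are not protein-coding, had few reads. NDUFA6-AS1 is annotated as a processed transcript and the other 2 as antisense. NDUFA6-AS1 had 101 and 118 in resistant cells and 85.1 and 79.5 in parental cells, NDUFB2-AS1 had 118 and 109 against 102 and 101, and NDUFV2-AS1 had 30.3 and 31.5 against 38.7 and 36.8. NDUFB2-AS1 shares 321 exonic bases with NDUFB2, 7.22% of those of NDUFB2. The strand setting of the counting is not known, so reads of these bases cannot be assigned to either gene.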
